A study of Homo sapiens with 18 samples.

Results

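The data describe how RPMI-8402 cells with a PIK3R1 knockout responded at the messenger RNA level to 24 h of CB-103. RPMI-8402 is an established human cell line of T-cell acute lymphoblastic leukaemia (T-ALL). The 6 libraries described here, of 18 in the series, were chosen by their labels alone: 3 of knockout (KO) cells with CB-103 and 3 of KO cells with the vehicle DMSO. Beside them stand 3 KO libraries with the gamma-secretase inhibitor LY3039278 (GSI), also for 24 h, and 6 libraries of cells with a non-targeting (NT) control guide, 3 with CB-103 and 3 with DMSO. All groups were grown in RPMI medium with fetal bovine serum. The doses of both inhibitors, and whether the KO cells were a clone or a pool, were not stated by the labels. Nothing says that replicates were separate cultures, so p-values cover the spread between libraries, which may be partly technical.

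NOTCH1 is a receptor that is cut by gamma-secretase after it binds a ligand, and its intracellular part then enters the nucleus, joins the DNA-binding protein RBPJ and a Mastermind coactivator, and switches on target genes such as HES1, DTX1 and MYC. Activating changes of this pathway are frequent in T-ALL, where NOTCH drives growth largely through MYC. CB-103 is an inhibitor of the nuclear NOTCH complex, and GSI stops the cut of the receptor; the compounds are not analogs of each other. PIK3R1 encodes p85alpha, the regulatory subunit that stabilises and restrains the catalytic subunits of class I phosphoinositide 3-kinase (PI3K). The comparison asks which genes CB-103 changed in cells whose PIK3R1 had been targeted.

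PIK3R1 messenger RNA (chr 5, 68215720 to 68301821 in hg38) stood at 23.1, 21.4 and 23.2 CPM (library-scaled counts) in KO DMSO against 44.3, 45.5 and 42.5 CPM in NT DMSO (log2 difference -0.97 ± 0.09 SE, edgeR adjusted p = 4.1e-07). The KO libraries thus carried less of the transcript, without losing it; whether the protein was lost was not measured. In KO cells it was 25.9, 29.9 and 27.6 CPM with CB-103, a rise of 0.31 ± 0.09 on the log2 scale (adjusted p = 0.0088). That call did not survive leaving out KO CB-103 replicate 2 (adjusted p = 0.067) or KO DMSO replicate 2 (adjusted p = 0.059).

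The 6 KO libraries held 33240450 to 40861569 estimated reads. On a principal component analysis of these 6 libraries the first component (53.1% of variance) separated CB-103 from DMSO, and the next (21.5%) separated replicate 1 of both groups from replicates 2 and 3. Mitochondrially encoded transcripts took 1.69 to 1.88% of reads with DMSO and 1.89 to 2.69% with CB-103. Of 17346 genes tested, 4322 were called higher with CB-103 (24.9% of all tested) and 4110 lower (23.7%) at an adjusted p under 0.05, so 48.6% of genes were called and a member of a list has to be read against those shares. At least 2-fold changes were 1712 (9.87%), of which 1047 were rises (6.04%) and 665 falls (3.83%). With replicates 2 and 3 alone, 4293 genes were called higher and 3478 lower. The median change of all genes was -0.009 on the log2 scale.

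**Figure D1:**
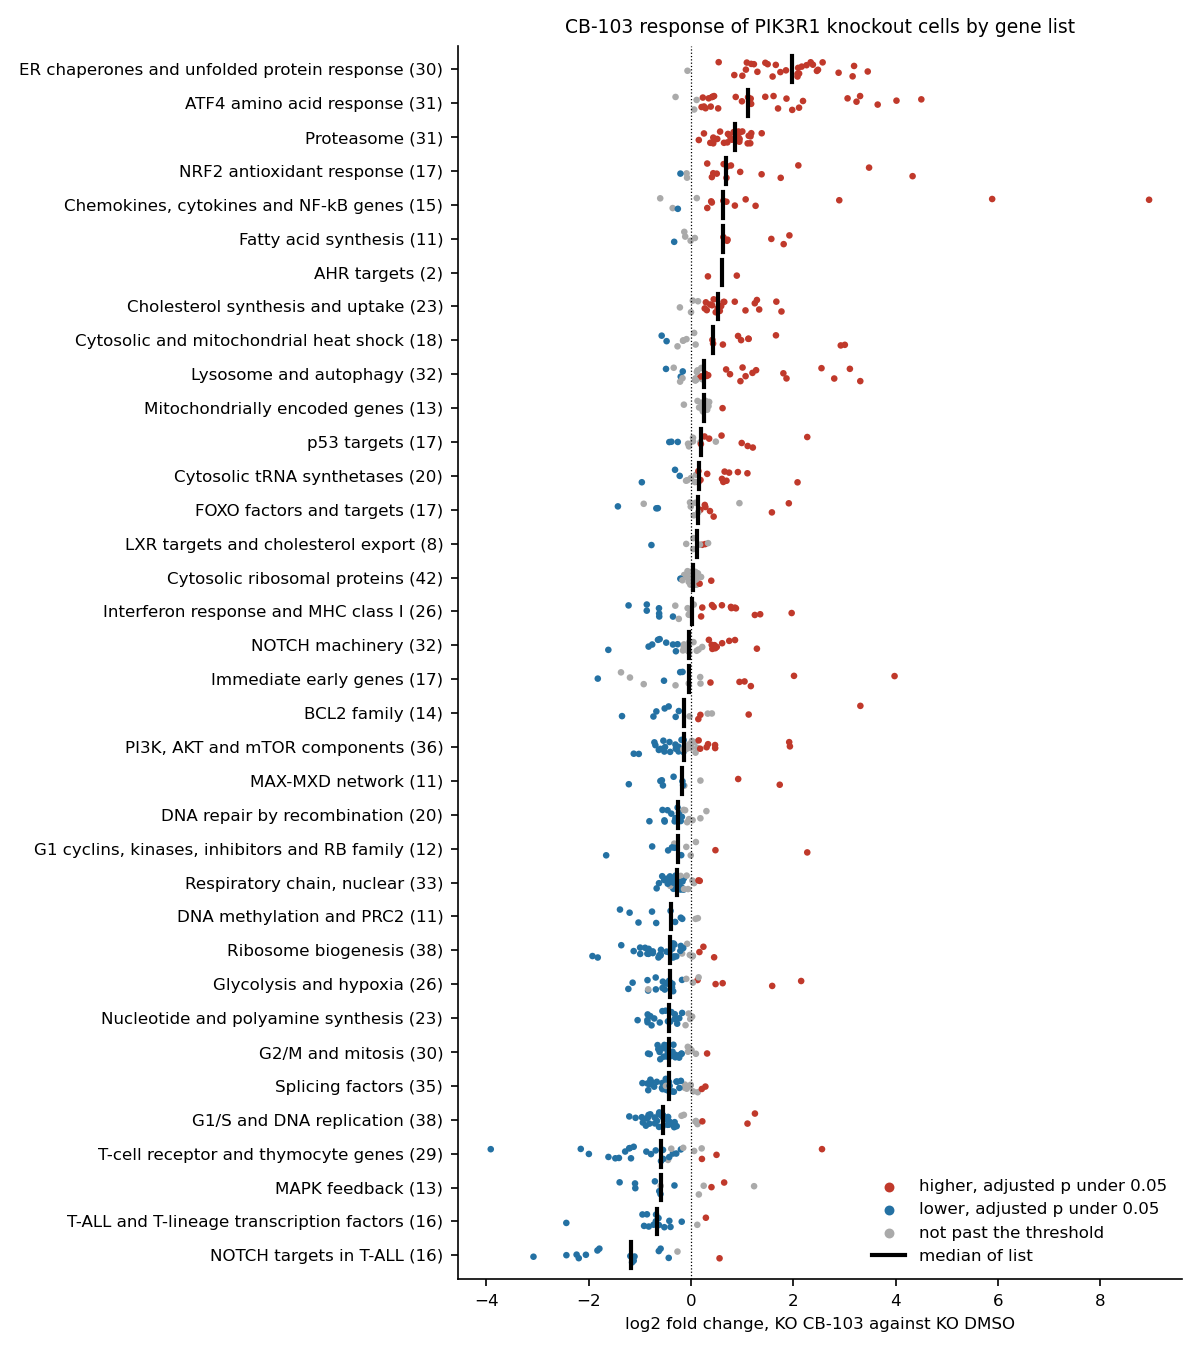
Each point is a tested gene of the list named at the left (number tested in parentheses), placed by its log2 fold change in KO CB-103 against KO DMSO; red and blue points passed an adjusted p of 0.05, grey points did not, and the black bar is the median of the list. Endoplasmic reticulum chaperones (median 1.97) and NOTCH targets (median -1.17) lie at the ends of the order.

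NOTCH target genes were lower. Of 20 listed targets 16 were tested, 14 were called lower and 1 higher, with a median of -1.17. HES1, the repressor that is the best known direct target (chr 3, 194136145 to 194138732), went from 82.3, 68.7 and 67.9 CPM with DMSO to 14.4, 12.2 and 13.9 CPM with CB-103. The groups lie far apart, and the fall was 5.41-fold (log2 fold change -2.43 ± 0.09 SE, adjusted p = 3.5e-13). DTX1, a ubiquitin ligase of the pathway, stood at 79.5, 79 and 83 CPM and then at 18, 16.6 and 18.2 CPM (-2.19 ± 0.08, adjusted p = 3.5e-13). HES4, a relative of HES1, dropped from 55.3, 54.4 and 57.9 CPM to 14.8, 17.7 and 16 CPM (-1.79 ± 0.08). CR2, a complement receptor, had the largest fall of the list, from between 134 and 139 CPM to between 15.6 and 17.3 CPM (-3.08 ± 0.07). RHOU, a small GTPase, fell by 2.23 on the log2 scale, NOTCH3 by 1.83, and IGF1R, a growth factor receptor that NOTCH1 is known to raise in T-ALL, by 1.15. LZTFL1 was the 1 target called higher (0.56 ± 0.04). IL7R was near the detection limit, at 0.401, 0.691 and 0.0556 CPM with DMSO and 0.15, 0.704 and 0.115 CPM with CB-103, and did not pass the test (-0.26 ± 1.02, adjusted p = 0.86); its sign turned with the libraries left out. NRARP had no count in any of the 6 libraries and was not tested, nor were HES5, HEY1 and PTCRA.

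Promoter sequence is shown for HES1 and HES4 because both fell by more than 3-fold and hold the letters of the RBPJ motif, GTGGGAA, upstream of the start. Among the 14 tested targets with a RefSeq promoter (GRCh38.p14, 250 bases before to 50 after the start), 4 held the motif on either strand (28.6%): HES1, HES4, HEY2 and HEYL. Of all 27305 promoters 6.28% held it, and of those of tested genes 5.71%. The capitals mark the match, which begins 85 bases before the start in HES1 (chr3:194136033-194136099, plus strand) and 77 bases before it in HES4 (chr1:1000138-1000204, minus strand). A match is a description of the letters, not a measured binding site.
HES1: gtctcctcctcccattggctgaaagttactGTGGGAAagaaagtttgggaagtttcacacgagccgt
HES4: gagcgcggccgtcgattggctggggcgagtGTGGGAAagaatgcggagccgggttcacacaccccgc

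MYC, the growth-promoting transcription factor (chr 8, 127735434 to 127741434), went from 122, 104 and 104 CPM to 27.6, 25.4 and 26.5 CPM, a 4.15-fold fall (-2.05 ± 0.07, adjusted p = 9.1e-14). Its relative MYCL fell by 1.22 on the log2 scale. The MXD proteins bind the MYC partner MAX and repress; their members split. MXD4 was at 6.45, 6.08 and 5.72 CPM with DMSO and at 20.1, 20.0 and 20.6 CPM with CB-103 (1.73 ± 0.09), and MXD1 also rose (0.92 ± 0.10), whereas MXI1 fell by 0.60 and MXD3 by 0.55. In the 11 genes of the MAX-MXD network 2 were called higher and 7 lower, and MAX and MNT were not called.

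The NOTCH machinery did not move one way. Of 36 listed receptors, ligands, proteases and complex members 32 were tested, 11 were called higher and 9 lower, with a median of -0.03. NOTCH1, the receptor itself, is counted with the targets above and not in these 32; it was at 387, 398 and 413 CPM and then at 186, 190 and 181 CPM (-1.10 ± 0.06, adjusted p = 3.4e-11). LFNG, the fringe enzyme that adds sugars to NOTCH, had the largest fall of the 32 but a low level, from 0.86, 1.22 and 1.08 CPM to 0.30, 0.381 and 0.345 CPM (-1.61 ± 0.25). ADAM17, a protease that sheds surface proteins, rose from between 42.5 and 45.4 CPM to between 99.5 and 112 CPM (1.29 ± 0.05). Of the complex members, CCNC rose by 0.86 and KAT2A fell by 0.76. MAML2, a Mastermind coactivator below 0.6 CPM throughout, was called lower (-0.83 ± 0.30, adjusted p = 0.032), a call lost without KO CB-103 replicate 1 or KO DMSO replicate 1 or 3; MAML1, MAML3, EP300 and CREBBP were not called.

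Genes of the endoplasmic reticulum (ER) stress response rose together. Unfolded protein in the ER activates the sensors IRE1, PERK and ATF6, which raise chaperones, folding enzymes and degradation factors through the transcription factors XBP1, ATF4 and ATF6. All 30 listed genes were tested, 29 were called higher and none lower, 27 of them by at least 2-fold, with a median of 1.97. HSPA5, the main ER chaperone BiP (chr 9, 125234853 to 125241330), went from 331, 310 and 325 CPM to 3084, 2497 and 3044 CPM, an 8.93-fold rise (3.16 ± 0.08, adjusted p = 6.5e-15). Per transcript length it went from 113 ± 2.66 to 984 ± 99.4 TPM (SD, n = 3). DNAJB9, a co-chaperone of HSPA5, was at 11.3, 10.6 and 11.2 CPM with DMSO and at 121, 124 and 118 CPM with CB-103 (3.45 ± 0.08), the largest rise of the list. HERPUD1, which serves ER-associated degradation, rose from 30.3, 32.9 and 32.9 CPM to 287, 310 and 278 CPM (3.19 ± 0.07). CRELD2 (2.88 ± 0.09), DNAJC3 (2.57 ± 0.05) and SDF2L1 (2.48 ± 0.08) followed. No library of CB-103 overlapped a DMSO library in any of the 29. Of all genes, 54.5% had groups that did not overlap, 27.9% with CB-103 higher. ERO1A, an ER oxidase, was the member not called.

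The ER stress element was searched for as CCAAT, any 9 bases, then CCACG, on either strand. It was found in 7 of 29 promoters of the tested list members (24.1%), those of HSPA5, HSP90B1, CALR, CANX, CRELD2, ERO1B and XBP1, and in 0.0806% of all 27305 promoters (0.12% of the 11624 promoters of tested genes). All of these 7 genes were called higher, as were 29 of the 30 list members, so the calls do not set the 7 apart. HSPA5, XBP1, CRELD2 and CANX are printed because they show the element on either strand at different distances. Matches, in capitals, begin 66 bases before the start in HSPA5 (chr9:125241361-125241439, minus strand), 52 before it in XBP1 (chr22:28800573-28800651, minus strand), 80 in CRELD2 (chr22:49918524-49918602, plus strand) and 151 in CANX (chr5:179698748-179698826, plus strand); in CRELD2 the match lies on the other strand.
HSPA5: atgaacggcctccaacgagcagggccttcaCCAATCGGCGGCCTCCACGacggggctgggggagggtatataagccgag
XBP1: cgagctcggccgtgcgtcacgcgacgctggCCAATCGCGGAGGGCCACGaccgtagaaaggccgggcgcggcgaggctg
CRELD2: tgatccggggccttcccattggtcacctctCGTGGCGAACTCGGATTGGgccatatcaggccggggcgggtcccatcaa
CANX: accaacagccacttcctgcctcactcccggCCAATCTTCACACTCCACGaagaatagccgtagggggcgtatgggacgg
These letters accompany rises of 3.16 (HSPA5), 1.23 (XBP1), 2.88 (CRELD2) and 1.45 (CANX) on the log2 scale.

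The ATF4 branch rose as well. ATF4 is the transcription factor whose translation goes up when eIF2alpha is phosphorylated, and it raises amino acid transporters, synthetases and the stress factor DDIT3 (CHOP). Of 33 listed genes 31 were tested, 28 were called higher and none lower (16 by at least 2-fold), with a median of 1.12. DDIT3 (chr 12, 57516588 to 57521737) was at 8.68, 8.82 and 9.25 CPM with DMSO and at 195, 193 and 218 CPM with CB-103, a 22.6-fold rise (4.50 ± 0.08, adjusted p = 1.4e-16). SLC7A11, the cystine transporter, went from 11, 10.6 and 13 CPM to 190, 174 and 195 CPM (4.01 ± 0.11). PPP1R15A, which directs dephosphorylation of eIF2alpha, went from 16.3, 18.7 and 17.8 CPM to 231, 202 and 229 CPM (3.65 ± 0.08). ATF5 (3.23 ± 0.07) and the pseudokinase TRIB3 (3.06 ± 0.09) rose too. ATF4 itself rose 1.99-fold, from 415, 421 and 441 CPM to 864, 804 and 876 CPM (1.00 ± 0.04), and ATF3 went from between 29 and 30.1 CPM to between 88.3 and 105 CPM (1.70 ± 0.08). GDF15, a secreted stress cytokine, was called higher at very low levels, with 0, 1 and 5 reads against 22, 20 and 15. The members not called were PHGDH, NUPR1 and ASNS. ASNS, asparagine synthetase and a standard ATF4 target, stood at 3.52, 2.55 and 1.00 CPM with DMSO and 0.899, 2.82 and 2.01 CPM with CB-103 (-0.30 ± 0.39, adjusted p = 0.56), and its sign turned without replicate 1 of either group.

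The amino acid response motif TGATGNAA was found on either strand in 5 of 26 promoters of the list (19.2%) against 3.67% of all promoters and 1.75% of those of tested genes. The 5 were ATF3, CHAC1, SLC3A2, SLC7A1 and ASNS. Sequences of 3 are shown because ASNS has the motif in the same kind of window as genes that rose. The capitals mark the match, 191 bases before the start in ATF3 (chr1:212565186-212565253, plus strand), 209 in CHAC1 (chr15:40953232-40953299, plus strand, match on the other strand) and 68 in ASNS (chr7:97872439-97872506, minus strand).
ATF3: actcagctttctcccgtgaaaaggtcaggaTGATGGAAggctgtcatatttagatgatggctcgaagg
CHAC1: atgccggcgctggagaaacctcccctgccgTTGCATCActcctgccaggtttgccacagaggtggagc
ASNS: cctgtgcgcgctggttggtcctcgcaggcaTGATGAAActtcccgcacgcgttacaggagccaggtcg
CHAC1, a glutathione-degrading enzyme, rose by 2.11 on the log2 scale.

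Cytosolic tRNA synthetases were more often higher than lower: of 20, 12 were called higher and 3 lower (median 0.17). WARS1 went from 59.8, 59.95 and 62.2 CPM to 262, 241 and 267 CPM (2.08 ± 0.05), and AARS1 (1.10 ± 0.07) and IARS1 (0.92 ± 0.04) rose. VARS1 went the other way, from 141, 135 and 132 CPM to 69.7, 64.6 and 75.2 CPM (-0.96 ± 0.05), and HARS1 fell by 0.31.

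**Figure D2:**
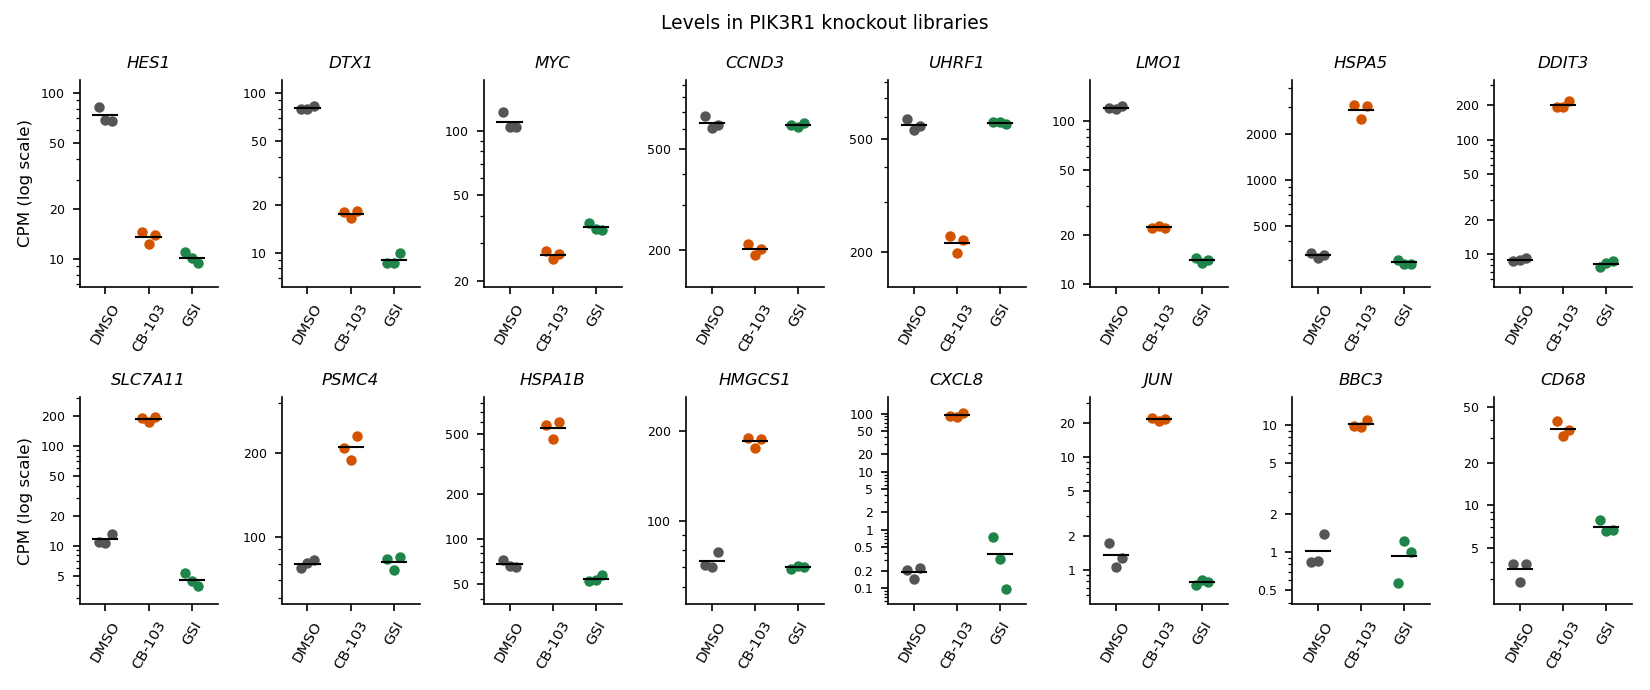
Library-scaled counts (CPM) on a log axis (a separate range for each gene) in the 3 KO libraries of DMSO, CB-103 and GSI; points are libraries and bars are means. CCND3 and UHRF1 lie near their DMSO level with GSI and well below it with CB-103, HES1 and DTX1 lie low with both, and HSPA5, DDIT3 and PSMC4 are high with CB-103 alone among the 3 treatments.

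All 31 proteasome subunits tested were called higher, with a median of 0.86. The proteasome degrades ubiquitin-tagged proteins, and its genes are known to be raised together by the factor NRF1. PSMC4, an ATPase of the cap, went from 77, 80.4 and 82.7 CPM to 208, 188 and 230 CPM (1.38 ± 0.07, adjusted p = 1.1e-11). PSMC1, PSMD11, PSMC2, PSMD13 and PSMD14 rose by 1.11 to 1.18 on the log2 scale. The smallest change of the 31 was 0.15, and in each of the 31 the groups did not overlap (54.5% of all genes had groups that did not overlap, 27.9% with CB-103 higher).

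Cytosolic and mitochondrial chaperones were more often higher than lower. Of 18 tested 10 were called higher and 2 lower, with a median of 0.43. HSPA1B stood at 72.8, 65.8 and 64.8 CPM with DMSO and at 574, 462 and 598 CPM with CB-103 (3.01 ± 0.09), and HSPA1A changed by 2.93 ± 0.10; the pair are near-identical copies, so the split of reads between them is uncertain. DNAJB1, their partner, rose from 143, 142 and 142 CPM to 458, 406 and 484 CPM (1.66 ± 0.06). HSP90AA1 (1.13 ± 0.07), HSPH1 (1.12 ± 0.08) and HSPA9, the mitochondrial HSP70 (0.98 ± 0.06), rose. HSPE1 fell by 0.57 and HSPB1 by 0.48.

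Of 17 tested genes of the NRF2 antioxidant response 14 were called higher and 1 lower (median 0.69). FTL, the ferritin light chain, went from 935, 912 and 918 CPM to 3173, 2893 and 3251 CPM (1.75 ± 0.06), and per length from 1849 ± 3.03 to 6076 ± 262 TPM (SD, n = 3). PIR (2.10 ± 0.08) rose, as did GCLM (1.38 ± 0.09) and GCLC (0.96 ± 0.06), the subunits of the enzyme that starts glutathione synthesis. HMOX1, heme oxygenase, was called higher from 1, 0 and 2 reads to 17, 19 and 26, and OSGIN1 was also low, reaching 2.32 to 2.43 CPM. PRDX1 was the member that fell (-0.21 ± 0.05). The antioxidant response motif TGACNNNGC lay in 4 of 11 promoters of the list (36.4%). It lay in 13.6% of all promoters and 15.2% of those of tested genes. AHR targets could be tested for 2 of 6 genes, and AHRR (0.90 ± 0.14) and TIPARP (0.33 ± 0.08) were both called higher.

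Sterol genes rose. SREBP2 raises the enzymes of cholesterol synthesis when ER sterol falls. Of 25 listed genes 23 were tested, 19 were called higher and none lower, 6 by at least 2-fold (median 0.52). INSIG1, which holds SREBP in the ER, went from 432, 412 and 399 CPM to 1514, 1288 and 1434 CPM (1.77 ± 0.06). STARD4, a sterol carrier (1.67 ± 0.07), HMGCS1, which starts the pathway (1.33 ± 0.05), and HSD17B7 (1.25 ± 0.08) rose. PMVK, FDPS, CYP51A1 and NSDHL were not called. The sterol regulatory motif TCACNCCAC lay in 1 of 19 promoters of the list, that of SREBF2 (5.26%). It lay in 1.15% of all promoters and 1.08% of those of tested genes. Of 11 tested fatty acid genes 6 were called higher and 1 lower. SCD, the stearoyl-CoA desaturase, went from 704, 683 and 683 CPM to 2849, 2417 and 2582 CPM (1.92 ± 0.07), and FADS1 and FADS2 rose by 1.81 and 1.57. ACLY fell by 0.33, and FASN, ACACA, ELOVL6 and ACSL1 were not called. Among 8 LXR targets 2 were called higher and 1 lower, a share near that of all genes. ABCA1, the cholesterol exporter, was the one that fell, from 47.8, 48.4 and 49.6 CPM to 30.7, 28.1 and 26.6 CPM (-0.77 ± 0.07, adjusted p = 5.3e-08). The calls of MYLIP (0.28) and LPCAT3 (0.22) were lost without KO DMSO replicate 2 and without KO CB-103 replicate 1, respectively.

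Many chemokines and NF-kB genes had few or no reads in the deposited table, and those tested were mostly higher: of 27 listed 15 were tested, 11 called higher and 1 lower (median 0.63). CXCL8, the neutrophil chemokine interleukin 8 (chr 4, 73740506 to 73743716), had 7, 6 and 8 reads with DMSO and 3006, 2965 and 3631 with CB-103, or 0.201, 0.143 and 0.222 against 90.1, 87 and 104 CPM (8.95 ± 0.30, adjusted p = 1e-13). It was the largest rise once genes averaging under 5 CPM were set aside. CXCL3 followed, from 0.602, 0.358 and 0.417 CPM to 26.9, 30.01 and 24 CPM (5.88 ± 0.22). RELB, an NF-kB subunit (2.90 ± 0.22), and NFKBIA, the inhibitor that NF-kB induces (1.26 ± 0.10), rose. BIRC3 fell by 0.26, a call lost with replicates 2 and 3 alone. CXCL1, CXCL2, IL6, TNF and NFKB1 were among the 12 not tested. NFKB1, a subunit that many cell types express, had 0 to 13 reads in each of the 18 libraries, and CCNE1, a cyclin of dividing cells, 0 to 8. Whether such low values come from the cells or from the quantification was not tested, so a gene left untested is not shown to be unexpressed.

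Of 17 tested immediate early genes, 6 were called higher and 4 lower (6 and 2 with replicates 2 and 3 alone). JUN, part of the AP-1 factor, went from 1.72, 1.07 and 1.28 CPM to 21.7, 20.7 and 21.4 CPM (3.98 ± 0.15), MAFF rose by 2.01 and KLF6 by 1.17. FOS, FOSB, JUNB and NR4A1 were not called. The AP-1 motif TGANTCA lay in 1 of 16 promoters of the list (6.25%). It lay in 7.76% of all promoters and 4.63% of those of tested genes. EGR1 was called lower from 2.23, 0.739 and 0.389 CPM to 0.42, 0.088 and 0.431 CPM (-1.82 ± 0.58, adjusted p = 0.015); its groups overlap and without KO DMSO replicate 1 (-0.85) or with KO CB-103 replicate 2 left out (-1.39) it was not called. Feedback regulators of MAPK signalling were mostly lower: of 13 tested, 7 were called lower and 2 higher (median -0.59), and with replicates 2 and 3 alone 7 were called lower and 3 higher (median -0.31). SPRED2 went from 17.2, 16.8 and 13.2 CPM to 5.70, 6.60 and 5.67 CPM (-1.39 ± 0.12), and DUSP2 and SPRY1 each fell by 1.09. The rises of PHLDA1 (0.65) and DUSP10 (0.40) were both lost without KO CB-103 replicate 3 or KO DMSO replicate 2, and that of PHLDA1 also without KO CB-103 replicate 2 or KO DMSO replicate 3.

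**Figure D3:**
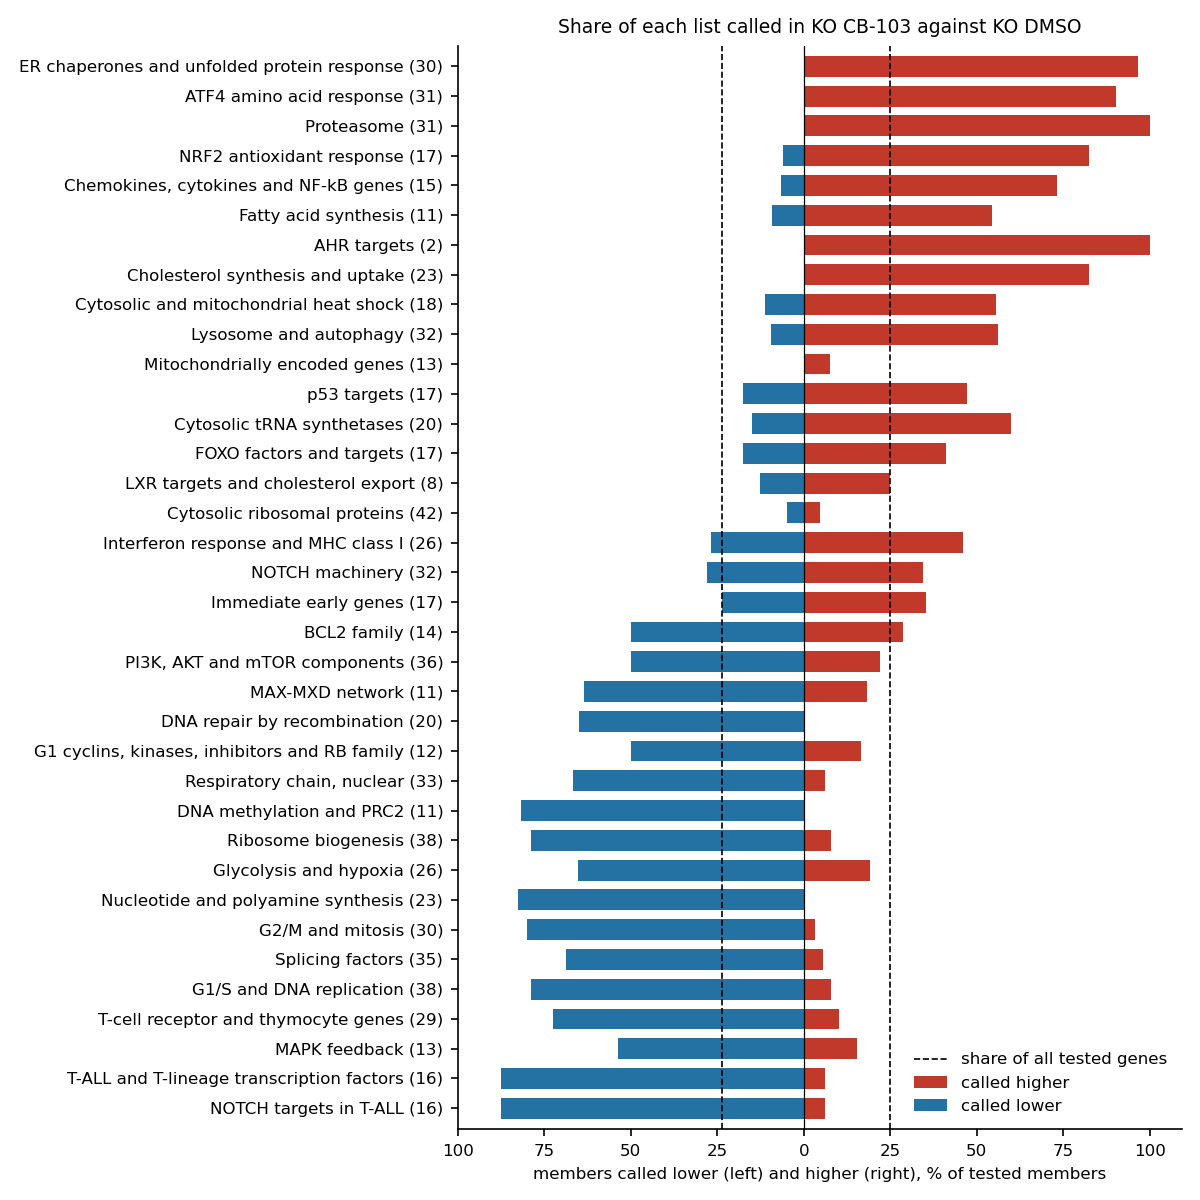
Bars give the share of tested members of each list (number in parentheses) that were called higher (right) or lower (left) in KO CB-103 against KO DMSO, and dashed lines the share of all tested genes (24.9% higher and 23.7% lower). Proteasome subunits reach 100% on the right, while ribosomal proteins lie inside both lines at 4.76% each.

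Cell cycle genes were lower. Of 38 tested genes of the G1/S transition and DNA replication 30 were called lower and 3 higher, with a median of -0.55. RRM2, the ribonucleotide reductase subunit, went from 275, 258 and 258 CPM to 126, 113 and 104 CPM (-1.21 ± 0.08). CCNE2 fell by 1.08, MCM4 by 0.96 and PCNA, the sliding clamp, by 0.94. MCM5 and CDC6 moved against the list. MCM5, a subunit of the replicative helicase, went from 213, 201 and 202 CPM to 546, 430 and 488 CPM (1.25 ± 0.08), and CDC6, which loads that helicase, from 78.7, 75.8 and 66.8 CPM to 173, 138 and 165 CPM (1.10 ± 0.08). Among 30 genes of G2/M and mitosis 24 were called lower and 1 higher (median -0.42), none by 2-fold. CENPF fell by 0.84, MKI67, the proliferation marker, by 0.81, and CDK1 by 0.65, while CDC20 rose by 0.32. In bulk samples, fewer cells in a phase or of a type and less RNA per cell cannot be told apart. The E2F motif TTTGGCGC was found on either strand in 7 of 33 promoters of the G1/S list, CDC6 among them. That was 21.2%, against 0.659% of all promoters and 1.02% of those of tested genes. The TTTGAA motif of mitotic genes was found in 17 of 25 promoters of the G2/M list. That was 68%, against 15.4% of all promoters and 10.3% of those of tested genes.

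CCND3, the D-type cyclin that T-cell progenitors depend on (chr 6, 41934933 to 42050357), went from 677, 609 and 621 CPM to 212, 191 and 202 CPM, a 3.15-fold fall (-1.66 ± 0.07, adjusted p = 4.6e-12). CDKN1B, the inhibitor p27, rose from 66.5, 64.5 and 65.4 CPM to 94.6, 87 and 91.7 CPM (0.48 ± 0.05). CDKN1A, the inhibitor p21, rose from 1.29, 1.19 and 1.17 CPM to 6.62, 4.87 and 6.16 CPM (2.27 ± 0.23). The inhibitors did not move one way. CDKN2D fell from 20.6, 19.6 and 21.4 CPM to 11.5, 12.6 and 12.25 CPM (-0.76 ± 0.06), and CDKN2C was not called. Of the 12 tested G1 cyclins, kinases, inhibitors and RB family genes 2 were called higher and 6 lower. CDK2 and RB1 fell by 0.45 and 0.37. Of 11 genes of DNA methylation and of the PRC2 complex 9 were called lower and none higher. UHRF1, which brings DNMT1 to replicated DNA, went from 591, 539 and 560 CPM to 228, 198 and 220 CPM (-1.39 ± 0.07), and TET1 (-1.20 ± 0.06), DNMT3B (-1.03 ± 0.05) and DNMT1 (-0.76 ± 0.08) fell. In recombination repair 13 of 20 were called lower and none higher (10 lower and 2 higher with replicates 2 and 3 alone), with FANCA the largest fall (-0.81 ± 0.10) and BRCA1, BRCA2 and ATM among those not called.

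Ribosome biogenesis factors were lower, and few ribosomal proteins were called. Of 38 biogenesis genes 30 were called lower and 3 higher (median -0.40). PPAN went from 279, 272 and 292 CPM to 73.9, 79.5 and 68.5 CPM (-1.93 ± 0.07), POLR1G, a subunit of RNA polymerase I, from 15.2, 16.9 and 14.7 CPM to 5.09, 4.31 and 3.85 CPM (-1.82 ± 0.11), and BOP1 fell by 1.36. GNL3 (0.45 ± 0.06) and WDR74 (0.24 ± 0.05) rose. The MYC E-box CACGTG lay in 11 of 32 promoters of the list (34.4%, against 7.43% of all promoters and 9.83% of those of tested genes). Of 42 cytosolic ribosomal proteins 2 were called higher and 2 lower, with a median of 0.05 and a range of -0.21 to 0.40. With replicates 2 and 3 alone 8 were called higher.

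Enzymes that make nucleotides and polyamines were lower in 19 of 23 cases and higher in none (median -0.42). NME1 fell from 178, 180 and 186 CPM to 82, 88.2 and 93.8 CPM (-1.04 ± 0.06), and SMS, spermine synthase, MTHFD1 and CTPS1 each fell by 0.85. ODC1, PPAT, GMPS and PRPS1 were not called. In glycolysis and the hypoxia response 17 of 26 tested were called lower and 5 higher (median -0.42). LDHA, lactate dehydrogenase, went from 1202, 984 and 996 CPM to 483, 426 and 454 CPM (-1.22 ± 0.09), HK2 fell by 1.14 and PGAM1 by 0.85. VEGFA, a secreted growth factor, was higher, from 38, 36.5 and 37.3 CPM to 181, 153 and 163 CPM (2.15 ± 0.09), as was SLC2A3, a glucose transporter (1.59 ± 0.13). Of 33 nuclear respiratory chain genes 22 were called lower and 2 higher (median -0.27), none by 2-fold, with NDUFB3 the largest fall (-0.67 ± 0.06). The rises of NDUFS1 (0.17) and UQCRC2 (0.15) were lost without KO CB-103 replicate 3 or KO DMSO replicate 2, and that of UQCRC2 also without KO DMSO replicate 3. Of 13 mitochondrially encoded genes 1 was called, MT-CYB (0.62 ± 0.24, adjusted p = 0.046), and that call was lost without any of KO CB-103 replicates 2 and 3 and KO DMSO replicates 1, 2 and 3. Splicing factors were lower in 24 of 35 cases and higher in 2 (median -0.43). SNRPG fell by 0.95 and SRSF7 by 0.85; SRSF10 rose by 0.28.

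In the BCL2 family, which sets the threshold for mitochondrial cell death, 4 of 14 tested genes were called higher and 7 lower. BBC3, the killer protein PUMA, went from 0.831, 0.858 and 1.39 CPM to 9.80, 9.74 and 11 CPM, a 9.91-fold rise (3.31 ± 0.21, adjusted p = 5.9e-10). PMAIP1, the killer NOXA, went from 56.6, 59.9 and 59.3 CPM to 123, 121 and 140 CPM (1.13 ± 0.06). BCL2L11, the killer BIM, fell instead, from 23.1, 17.8 and 19.9 CPM to 9.65, 6.51 and 7.68 CPM (-1.35 ± 0.15). The killers BIK (-0.73 ± 0.12) and BID (-0.51 ± 0.07) fell as well. Of the guardians, BCL2 fell from 19.2, 18.9 and 18.8 CPM to 13.5, 10.2 and 11.9 CPM (-0.68 ± 0.09) and BCL2L1 by 0.30. MCL1 was called higher (0.14 ± 0.05, adjusted p = 0.017), a call lost without the count filter, without KO CB-103 replicate 1 and without KO DMSO replicate 2 or 3. Of 17 tested p53 targets 8 were called higher and 3 lower. GADD45A (1.21 ± 0.09), PLK3 (1.11 ± 0.08) and TNFRSF10B, the death receptor DR5 (0.99 ± 0.08), rose, and MDM2 fell by 0.38.

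Genes of T-cell identity were lower. Of 29 tested T-cell receptor and thymocyte genes 21 were called lower and 3 higher, 11 of the falls by at least 2-fold (median -0.59). CD2, an adhesion receptor, went from 67.7, 50.2 and 47.6 CPM to 16.5, 10.2 and 10.5 CPM (-2.15 ± 0.21), CCR9, the thymus-homing chemokine receptor, from 156, 145 and 146 CPM to 40.5, 35.6 and 36.1 CPM (-2.00 ± 0.07), and CD7 from 19.8, 22.8 and 23 CPM to 7.43, 8.39 and 7.74 CPM (-1.48 ± 0.15). CD1A was called lower from 29, 37 and 23 reads to 2, 0 and 3. RAG1 fell by 1.61. CD3E was called lower (-0.29 ± 0.10, adjusted p = 0.025), a call lost without KO CB-103 replicate 2 or 3 or KO DMSO replicate 1. PTPRC, the phosphatase CD45, rose (0.50 ± 0.05), and TRAC rose at a low level, from 0.143, 0.143 and 0.195 CPM to 1.02, 0.909 and 0.949 CPM. The cells kept the T-cell markers: the summed level of CD3D, CD3E, CD3G, CD5 and CD7 was 717 to 767 CPM with DMSO and 565 to 636 CPM with CB-103, with none at 0, and 4 of the 5 were called lower.

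Of 16 tested T-lineage and T-ALL transcription factors 14 were called lower and 1 higher (median -0.66). LMO1, a T-ALL oncogene, went from 120, 118 and 123 CPM to 22.1, 22.6 and 21.9 CPM, a 5.41-fold fall (-2.44 ± 0.06, adjusted p = 6.5e-15). TCF7 (-0.95 ± 0.11), LYL1 (-0.92 ± 0.11), MYB (-0.86 ± 0.06), BCL11B (-0.83 ± 0.06) and GATA3 (-0.73 ± 0.13) fell, and TAL1, the partner of LMO proteins, fell from between 51 and 52.8 CPM to between 38.8 and 40.2 CPM (-0.40 ± 0.05). TCF12 rose by 0.29.

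In the PI3K, AKT and mTOR pathway 18 of 36 tested genes were called lower and 8 higher (median -0.15). INPP5D, the phosphatase SHIP1 that removes a phosphate from the PI3K product, went from 160, 159 and 157 CPM to 78.3, 71 and 70.5 CPM (-1.12 ± 0.06). PIK3R3, another regulatory subunit, went from 49.5, 50.3 and 49.8 CPM to 31.2, 31.6 and 29.6 CPM (-0.70 ± 0.06), and PHLPP1, an AKT phosphatase, fell by 0.72. DEPTOR, an mTOR inhibitor, rose from 1.12, 0.954 and 1.06 CPM to 4.14, 3.79 and 4.03 CPM (1.93 ± 0.19). PIK3CA, TSC1, TSC2 and RPTOR were among those not called. FOXO factors, which PI3K and AKT hold out of the nucleus, and their targets were called higher in 7 of 17 cases and lower in 3 (median 0.14). TXNIP (1.58 ± 0.07) and FBXO32 (1.91 ± 0.32) rose, while FOXO1 fell by 0.68.

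Of 32 tested lysosome and autophagy genes 18 were called higher and 3 lower (median 0.25). MAP1LC3B (1.80 ± 0.06) and GABARAPL1 (2.55 ± 0.08), which coat autophagosomes, rose, as did WIPI1 (3.10 ± 0.28), GPNMB (2.80 ± 0.13) and the protease CTSD (1.87 ± 0.09). FNIP2 fell by 0.49. CD68, a lysosomal membrane protein also used as a myeloid marker, went from 3.87, 2.86 and 3.86 CPM to 39.4, 31.2 and 34 CPM (3.31 ± 0.12). The other 6 myeloid markers (CD14, LYZ, CSF1R, ITGAM, MPO, FCGR3A) summed to at most 1.79 CPM in a DMSO library and 1.32 CPM in a CB-103 library. Haemoglobin genes and PF4 were at 0 in all 6 libraries, as were the epithelial markers EPCAM and KRT18. Interferon and MHC class I genes were called higher in 12 of 26 cases and lower in 7 (median 0.02), and IFI44 (1.97 ± 0.07), IRF9 (1.35 ± 0.15) and OAS1 (1.25 ± 0.14) rose, while NLRC5 (-1.22 ± 0.17) and IFIT1 (-0.86 ± 0.11) fell.

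Among called genes that averaged 5 CPM or more and whose groups did not overlap, the 10 largest rises were CXCL8, CXCL3, CLU, DDIT3, NMRAL2P, MEI1, MIR22HG, SLC7A11, JUN and GPAT3. CLU, the extracellular chaperone clusterin, went from 0.688, 0.429 and 0.695 CPM to 20.1, 15.3 and 19.2 CPM (4.92 ± 0.34). GPAT3, an enzyme of glycerolipid synthesis, went from 3.29, 2.98 and 3.11 CPM to 48.8, 45.8 and 50.1 CPM (3.95 ± 0.08). The 10 largest falls were PPAN-P2RY11, ANKRD1, LGALS12, OLFM4, CR2, TRD-AS1, ENSG00000272512, P2RY11, LINC02814 and ADCY3. ANKRD1 went from 15.6, 15.5 and 15.1 CPM to 1.02, 0.939 and 1.15 CPM (-3.89 ± 0.14), and OLFM4 from 86.5, 80.8 and 83 CPM to 9.98, 6.92 and 7.79 CPM (-3.34 ± 0.11). P2RY11, PPAN and the PPAN-P2RY11 readthrough share sequence, so the split of reads among the 3 is uncertain.

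Whether the response of KO cells differed from that of NT cells was tested with the interaction contrast, the CB-103 response of KO minus that of NT cells, and those responses share no library. It called 2533 genes (14.6% of those tested), 1780 with a more positive change in KO cells (10.3%) and 753 with a more negative one (4.34%), 303 of them by at least 2-fold (1.75%; 162 positive, 0.934%, and 141 negative, 0.813%). That split depends on scaling: with library totals alone it was 1242 against 1404, and the median difference of all genes moved from 0.008 to -0.08.

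Falls were often smaller in KO cells. CCND3 fell by 1.66 in KO and by 2.64 in NT cells on the log2 scale (difference 0.99 ± 0.10, adjusted p = 1.2e-05). The mean level of CCND3 was 926.5 CPM in NT DMSO and 148.3 CPM in NT CB-103, against 635.5 and 201.5 CPM in KO cells. Among the 38 G1/S genes 22 had a positive difference and 1 a negative one, and RRM2 (1.04) stood high. RB1, listed apart from the G1/S genes, had a difference of 0.93. Its mean level was 550 CPM in NT DMSO and 224 CPM in NT CB-103, against 203 and 157 CPM in KO cells. Of 33 respiratory chain genes 20 had a positive difference, and of 26 glycolysis and hypoxia genes 17 did, with 1 negative. Of 29 T-cell genes 13 and of 16 T-ALL transcription factors 8 had a positive difference and none a negative one. Under library totals alone the positive counts were 16 (G1/S), 13 (respiratory chain), 14 (glycolysis), 13 (T-cell genes) and 7 (T-ALL factors). TMSB10, an actin-binding peptide, changed by -1.43 in KO and by -2.99 in NT cells (difference 1.56 ± 0.09), and LGALS9 by -1.15 and -2.76. KRT1 had the largest positive difference of the named genes, -2.21 against -4.43. BCL2 changed by -0.68 in KO and -1.60 in NT cells (difference 0.92 ± 0.13, adjusted p = 0.00017). The NOTCH targets were mixed: 4 of 16 had a positive difference and 1 a negative one (4 and 2 under library totals alone). HES1 (difference -0.01 ± 0.12) and MYC (0.15 ± 0.09) did not pass. CR2 (0.73 ± 0.09), DTX1 (0.60 ± 0.11), NOTCH1 (0.58 ± 0.08) and RHOU (0.39 ± 0.08) did. Mean levels of DTX1 with DMSO and CB-103 were 174.6 and 25.15 CPM in NT cells, against 80.47 and 17.6 CPM in KO cells. Those of CR2 were 136.2 and 9.73 against 136.8 and 16.21 CPM. For NOTCH1 they were 485 and 151.2 against 399.4 and 185.9 CPM, and for RHOU 710.7 and 115.3 against 856 and 181.8 CPM.

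Rises differed in both directions. Of the 30 ER stress genes 17 had a negative difference and none a positive one (22 and none under library totals alone): HERPUD1 rose by 3.19 in KO and 3.90 in NT cells (difference -0.71 ± 0.10), CRELD2 by 2.88 and 3.86, and DNAJC3 by 2.57 and 3.18, while HSPA5 did not pass (-0.13 ± 0.11, adjusted p = 0.47). In the ATF4 list 11 of 31 had a positive difference and 3 a negative one (8 and 4 under library totals alone), and ATF4 itself rose by 1.00 in KO and 0.50 in NT cells (difference 0.49 ± 0.06, adjusted p = 5.8e-05). Of 18 heat shock genes 7 were positive and none negative (6 and 1 under library totals alone); HSP90AA1 rose by 1.13 in KO and 0.51 in NT cells. Of 31 proteasome genes 8 were positive and none negative, but 6 and 2 under library totals alone. PRDX1 changed by -0.21 in KO and by -1.31 in NT cells, CD68 by 3.31 and 1.77, and OPTN, an autophagy receptor, by 2.67 and 4.09. ABCA1 was called lower in KO cells (-0.77) and not called in NT cells (0.17, adjusted p = 0.055), with a difference of -0.94 (adjusted p = 1.4e-05). Its mean level was 48.6 CPM in KO DMSO and 28.5 CPM in KO CB-103, against 21.3 and 24.0 CPM in NT cells. PIK3R1 itself rose in KO cells and fell by 0.50 in NT cells, where it was 30.9, 33.5 and 29.1 CPM with CB-103 (difference 0.81 ± 0.13, adjusted p = 0.00034).

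**Figure D4:**
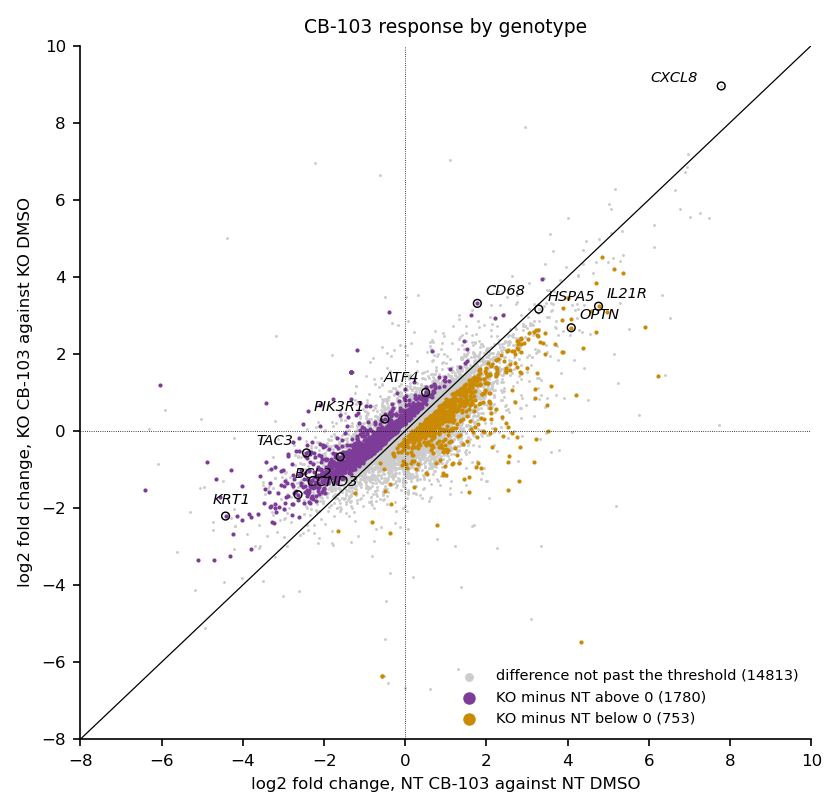
Each point is 1 of 17346 tested genes, placed by its log2 fold change with CB-103 in NT cells (horizontal) and in KO cells (vertical); purple and gold mark the 1780 and 753 genes whose response differed between the genotypes, and the line marks equal change. KRT1, CCND3 and BCL2 lie above the line among the falls, and IL21R and OPTN below it among the rises.

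CB-103 was also set directly against GSI in KO cells, at the same time and with doses not given. This test shares the CB-103 libraries with the comparison against DMSO. It called 4292 genes higher with CB-103 than with GSI (24.7%) and 4010 lower (23.1%), 47.9% in all. At least 2-fold differences were 1700 (9.8%), 1066 higher (6.15%) and 634 lower (3.66%). ER stress genes were higher with CB-103 than with GSI in 29 of 30 cases, ATF4 genes in 29 of 31 and proteasome genes in 30 of 31, and none of the 3 lists had a member called lower. HSPA5 stood at 302, 283 and 283 CPM with GSI (CB-103 against GSI 3.31 ± 0.08), DDIT3 at 7.63, 8.37 and 8.63 CPM (4.62 ± 0.08) and CXCL8 at 0.745, 0.312 and 0.0945 CPM. SLC7A11 was at 5.25, 4.40 and 3.94 CPM with GSI, below every DMSO library.

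NOTCH targets did not take 1 direction between the inhibitors: 5 of 16 were called higher with CB-103 than with GSI and 4 lower, close to the shares of all genes. HES1 was at 10.9, 10.1 and 9.45 CPM with GSI (0.41 ± 0.10, adjusted p = 0.0019), HES4 at 4.56, 5.34 and 5.29 CPM (1.67 ± 0.09), CR2 at 6.74, 5.82 and 6.46 CPM (1.36 ± 0.08) and DTX1 at 8.62, 8.60 and 9.98 CPM (0.96 ± 0.09), all lower with GSI than with CB-103. MYC was lower with CB-103, at 37, 34.7 and 34.6 CPM with GSI (-0.42 ± 0.07, adjusted p = 5.8e-05), and so was NOTCH1, at 279, 282 and 293 CPM with GSI (-0.61 ± 0.06). NOTCH3 did not pass (-0.31 ± 0.16, adjusted p = 0.13).

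Cell cycle genes were lower with CB-103 than with GSI in 30 of 38 G1/S and 29 of 30 G2/M cases. Some G2/M genes stood above their DMSO level with GSI. TOP2A was at 1551, 1507 and 1476 CPM with GSI against 1266, 1225 and 1230 CPM with DMSO. CDK1 was at 391, 442 and 447 CPM against 342, 346 and 342 CPM. CDC20 was not above it, with means of 267 and 271 CPM. GSI against DMSO was not tested. CCND3 stood at 624, 612 and 632 CPM with GSI, inside the range of DMSO, so CB-103 against GSI was -1.63 ± 0.07. UHRF1 was at 576, 575 and 568 CPM with GSI (-1.41 ± 0.07) and TMSB10 at 503, 520 and 559 CPM (-1.52 ± 0.07). BCL2 was at 25.1, 23.8 and 23.1 CPM with GSI (-1.02 ± 0.09). LMO1 was low with both, at 14.4, 13.4 and 14 CPM with GSI. PIK3R1 did not differ past the threshold between the inhibitors, at 27.4, 32.2 and 23.9 CPM with GSI.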

How the data were processed

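The authors deposited a gene table of expected counts that had been rounded to whole numbers, for 58735 genes. Estimated counts and length-normalised TPM per transcript were deposited per library, per the file headers, and a table of variance-stabilised values was not used here. Per the submitters' processing notes, in no stated role or order, Salmon 1.4.0, HISAT2 2.2.1, FastQC 0.11.9, bcl2fastq 2.20 and hg38 were used. Libraries were stranded, polyA-selected and read as pairs of 75 bases, per the labels' protocols; how strand was used in counting is not given in the sources used here. Coordinates came from GENCODE release 29, symbols for 58207 genes from a name table, and promoters from RefSeq.

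Totals of the 18 libraries ran from 30416183 to 43558387 reads. Genes passing filterByExpr of edgeR 4.0.16 (17346) were TMM-scaled and fitted with the quasi-likelihood F test over all 18 libraries with 1 mean per group (12 residual degrees of freedom). P-values were adjusted by Benjamini-Hochberg over all genes; calls are at an adjusted p under 0.05, and ± is the SE of the log2 fold change unless named otherwise. TPM values are means over 3 libraries of transcript sums. The script was tested on simulated data in which few genes were changed, in KO CB-103 alone. That test does not cover changes as widespread as those called here.

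Members, lists, motifs and the naming rule were chosen with earlier results of these data known, so list counts are descriptions. Named genes were 32 fixed genes, the 10 largest rises and falls averaging 5 CPM or more with groups that did not overlap, up to 6 called members per list plus up to 2 against its direction, and the 8 largest interactions each way; 264 were named by the rule, and genes given only as not called or not tested, or for their promoter, are outside it. Alternatives were DESeq2 1.42.0 (size factors, Wald test), library totals only, no filter, only the groups compared, gene sums of transcripts, a 2-fold threshold, the replicate block, each replicate left out, and, added after seeing the data, replicates 2 and 3 only. A few genes are not reported here.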

Additional observations from a re-analysis of the deposited data

Results flagged for a closer look

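Flagged were 28 genes whose responses differed between KO and NT cells by the interaction contrast (edgeR adjusted p under 0.05, 14.6% of all genes). They were 12 of the 31 fixed genes tested and the 16 largest differences with a mean of at least 5 CPM. Other named genes, such as OLFM4, CR2 and PRDX1, also passed, so 28 is not a count over all named genes. The values that follow are the log2 response of KO minus that of NT cells.

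Among the fixed genes it was 0.81 for PIK3R1, 0.60 for DTX1, 0.58 for NOTCH1, 0.99 for CCND3, 0.49 for ATF4, 0.92 for BCL2, 0.46 for BCL2L1 and 0.27 for TAL1. It was -1.11 for CDKN1A, -0.33 for DDIT3, -0.39 for HMGCS1 and -0.26 for INSIG1, genes that rose in both genotypes.

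The largest positive differences were 2.21 for KRT1, 1.86 for TAC3, 1.77 for LGALS12, 1.66 for SPRED2, 1.61 for LGALS9, 1.60 for CD48, 1.57 for TMEM92 and 1.56 for TMSB10, all genes that fell in both genotypes and by less in KO cells. CD48, an adhesion receptor, went from 13.7, 12.4 and 14.8 CPM to 9.38, 10.5 and 10.6 CPM in KO cells (-0.42), against a change of -2.02 in NT cells. TAC3, a neurokinin precursor, changed by -0.57 in KO and by -2.43 in NT cells.

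The largest negative differences were -1.53 for IL21R, -1.44 for MAPRE3, -1.41 for OPTN, -1.28 for MIR22HG, -1.12 for BTN2A3P, -1.10 for SCART1, -1.10 for YJEFN3 and -1.09 for STK36. IL21R, the interleukin 21 receptor, went from 1.52, 1.14 and 1.64 CPM to 12.8, 13.3 and 14.3 CPM in KO cells. SCART1, YJEFN3 and STK36 were not called in KO cells (0.07, -0.26 and -0.42) and were called higher in NT cells (1.17, 0.84 and 0.67). STK36 lay near the threshold in KO cells: it was called lower with no count filter (adjusted p = 0.034), with the replicate block (adjusted p = 0.049) and without KO CB-103 replicate 2 (adjusted p = 0.049), by edgeR.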

How the results depend on the processing

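Among alternatives for the 264 named genes, 3617 of 3695 comparisons kept direction and side of the threshold, 63 lost the call, 4 gained it and 11 turned sign; 21 genes lost or gained a call. All that turned sign were uncalled: with replicates 2 and 3 only, IL7R stood at 0.127, ASNS at 0.458 and SCART1 at -0.029, and with gene sums of transcripts STK36 at 0.108. With 1 replicate left out IL7R ran from -1.539 to 0.492, ASNS from -0.7 to 0.092 and SCART1 from -0.030 to 0.221. Of 8432 calls, 94.46% were kept by the DESeq2 Wald test, 96.60% with library totals only and 86.23% with replicates 2 and 3 only. Depth limits genes with few reads, such as GDF15 and HMOX1.

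A threshold of at least 2-fold left 1712 calls against DMSO (1047 higher, 665 lower), 303 between genotypes (162 positive, 141 negative) and 1700 against GSI (1066 higher, 634 lower). The negative interactions were 1404 with library totals only and 483 with replicates 2 and 3 only. Among list members called higher it left 1 of NOTCH machinery, 16 of the ATF4 response, 2 tRNA synthetases, 6 of cholesterol synthesis, 0 LXR targets, 3 of fatty acid synthesis, 5 of the NRF2 response, 0 AHR targets, 5 of heat shock, 5 chemokines and NF-kB genes, 3 p53 targets, 0 ribosomal proteins, 0 mitochondrially encoded genes, 2 FOXO targets, 10 of lysosome and autophagy, 3 interferon genes and 7 of the proteasome. Among members called lower it left 1 of the MAX-MXD network, 3 of MAPK feedback, 2 of G1/S, 0 of G2/M, 1 of G1 cyclins, 3 of DNA methylation, 0 of recombination repair, 1 of the BCL2 family, 4 of ribosome biogenesis, 1 of nucleotide synthesis, 2 of glycolysis, 0 of the respiratory chain, 11 T-cell genes, 1 T-ALL factor, 2 of PI3K and 0 splicing factors. By its construction a fold threshold keeps fewer genes.

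LXR targets called higher were 1 with no count filter, and 1 to 2 with a replicate left out. Ribosomal proteins called higher were 1 with gene sums of transcripts, 1 with no count filter and 8 with replicates 2 and 3 only, and 1 to 3 with a replicate left out. Mitochondrially encoded genes called higher were 0 by the DESeq2 Wald test, 0 with library totals only, 5 with no count filter and 5 with only the groups compared, and 0 to 1 with a replicate left out; the causes were not tested.

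Same-numbered KO libraries of DMSO and CB-103 deviated together with r = 0.322, 0.157 and 0.0682. Over all groups 31 of 45 pairs exceeded 0.1 (range -0.0713 to 0.352). The rule used for pairing asked that every pair exceed 0.1, so the numbers were not taken to pair KO samples. In NT cells the same values were 0.338, 0.17 and 0.124. KO DMSO replicate 1 had r = -0.217 and -0.136 with KO CB-103 replicates 2 and 3. Between replicates 2 and 3 of these groups the unlike numbers had r = 0.0923 and 0.0993. The main fit has no replicate term, so a deviation that replicate 1 libraries share stays in its residual spread. With the replicate block 4561 genes were called higher and 4393 lower, 99.42% of calls were kept, and ribosomal proteins called higher were 4. With the block the responses of KO and NT cells differed for 3373 genes (2331 positive, 1042 negative). With replicates 2 and 3 only, the median of the interferon list was 0.136, of FOXO genes 0.222 and of NOTCH machinery 0.057. With library totals only, NRF2 genes called lower were 3 and LXR targets called lower 2.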

Other observations

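Of 13305 protein-coding genes (median level 27.5 CPM) 28.1% were called higher and 27.8% lower, while of 1147 long intergenic RNAs (median level 0.583 CPM) 14.6% were called higher and 8.98% lower. MIR22HG, the host gene of a microRNA, went from 1.15, 1.14 and 0.917 CPM to 15.5, 22.2 and 17.3 CPM (4.09 ± 0.18), and NMRAL2P, a transcribed pseudogene, from 0.516, 0.596 and 0.528 CPM to 10.8, 11.9 and 12.5 CPM (4.41 ± 0.30). TRD-AS1, an antisense gene of the T-cell receptor delta locus, went from 30.1, 32.4 and 31.8 CPM to 3.51, 4.05 and 3.97 CPM (-3.03 ± 0.14). LINC02814 fell by 2.64 on the log2 scale.

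Among markers of other cell types, NK-cell genes summed to 20.3 to 23.8 CPM with DMSO and 16.1 to 20.2 CPM with CB-103, and none of the 3 tested was called. COL1A1, a collagen gene of adherent cells, fell from 7.62, 11.6 and 12.3 CPM to 3.66, 2.55 and 4.83 CPM (-1.51 ± 0.22), with EPCAM, KRT18 and COL1A2 at 0 with DMSO. B-cell genes summed to 3.47 to 4.06 CPM with DMSO and 2.37 to 3.32 CPM with CB-103, with none called.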
